A study of Mus musculus with 384 samples.

Results

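Cd34, Lgr5 and Cd200 encode 3 surface proteins by which stem cells of the hair follicle bulge are recognised and sorted. Their rows were taken by gene name from a table of single-cell expression, 3 of its 46517 genes, and each name matched a single row. The cells came from mouse back skin at postnatal day 70 (P70) and were amplified one by one with Smart-seq2, a full-length protocol without molecular identifiers. The group labelled cKO carried NFIBfl/+ and the group labelled dKO NFIBfl/fl. Both groups carried Sox9-CreER, an inducible Cre recombinase driven from Sox9, a gene of hair follicle stem cells, with both Nfix alleles floxed (NFIXfl/fl) and the reporter R26-YFPfl/fl, so they differed in 1 allele of Nfib. In the series text the cKO group is called NFIB-cKO although 1 of its Nfib alleles is not floxed, and no group without floxed Nfi alleles was analysed here. Every cell was sorted as DAPI-negative, integrin α6-positive and YFP-positive, and was taken from a Sca-1-negative or a Sca-1-positive gate (Sca-1 is the product of Ly6a). No antibody to CD34, LGR5 or CD200 is named among the sorting markers, so the 3 genes were read in cells that had not been selected on them.

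The bulge is the lower part of the permanent hair follicle, where stem cells rest between hair cycles and from which a new follicle grows. CD34 is a sialomucin of the cell surface that in mouse skin marks bulge cells and is also found on blood progenitors and endothelium. LGR5 is a receptor for R-spondins, secreted proteins that strengthen WNT signalling, and marks bulge and hair germ cells of the resting follicle. CD200 is a membrane protein of the immunoglobulin family whose receptor on myeloid cells lowers their activity, and it is linked to the immune privilege of the follicle. NFIB and NFIX are transcription factors of the nuclear factor I (NFI) family, which bind the palindrome TGGCNNNNNGCCA as dimers and its half-site TTGGC more weakly.

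In GRCm38 Cd34 (ENSMUSG00000016494) lies at chr1:194938819-194961279 on the plus strand, Lgr5 (ENSMUSG00000020140) at chr10:115450311-115587780 on the minus strand and Cd200 (ENSMUSG00000022661) at chr16:45382135-45409053 on the minus strand. For Lgr5 no upstream sequence was available in the sources used here. The 250 bases before the RefSeq start (GRCm38.p6) are shown for Cd34 and Cd200, because the 2 genotypes differ in an NFI gene. Both are written 5′ to 3′ along the gene, with each match to the full palindrome or to a half-site (TTGGC, or GCCAA on the other strand) in capitals.
Cd34: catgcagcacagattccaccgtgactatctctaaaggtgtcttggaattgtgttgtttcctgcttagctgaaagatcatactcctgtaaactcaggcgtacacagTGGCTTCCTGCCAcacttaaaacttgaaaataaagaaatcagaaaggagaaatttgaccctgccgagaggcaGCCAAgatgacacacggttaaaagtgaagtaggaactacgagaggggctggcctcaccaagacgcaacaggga
Cd200: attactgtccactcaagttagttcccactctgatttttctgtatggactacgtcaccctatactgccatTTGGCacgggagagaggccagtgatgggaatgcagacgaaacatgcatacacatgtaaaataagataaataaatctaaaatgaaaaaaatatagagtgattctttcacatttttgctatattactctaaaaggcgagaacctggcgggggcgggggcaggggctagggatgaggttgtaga
The Cd34 window is chr1:194938571-194938820 and the Cd200 window is chr16:45409054-45409303. The Cd34 window held 1 full palindrome, with its first base at -145 from the start, and 1 half-site at -73. The Cd200 window held no full palindrome and 1 half-site at -181. Of 32851 windows of 300 bases around RefSeq gene starts, 41.5% held a half-site and 0.703% held the full palindrome, on either strand. These matches describe the letters of the windows, and no binding was measured in these cells.

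Of 384 deposited cells, 378 were kept, each with 1000 genes or more that reached 1 TPM (TPM, a gene's length-corrected share of all transcripts in a cell, scaled to a fixed total). The Sca-1-negative gate held 71, 47 and 65 cKO cells on plates 1, 2 and 3 and 93 and 61 dKO cells on plates 1 and 2. The Sca-1-positive gate held 22 cells in the upper 2 rows of wells of cKO plate 3 and 19 in those of dKO plate 2. Median genes per cell ran from 4770 to 5199 by plate and gate, and the read depth behind TPM is unknown. All cells are labelled male, but cKO plates 1 and 2 and dKO plate 1 had Xist (44.5 to 59.8 TPM), whereas cKO plate 3 and dKO plate 2 had Y-linked RNA instead. These are called the Xist plates and the Y plates, and genotype differences are also given within each kind. Nfib averaged 67.1 to 80.4 TPM over the cKO plates and 58.4 to 90.4 TPM over the dKO plates, and Nfix 43.7 to 47.96 and 29.6 to 32.3 TPM, values that do not separate transcripts with and without a floxed exon. Since no label names an animal, each genotype and gate is 1 sample, no test was made, and intervals are exact (Clopper-Pearson) 95% intervals that cover counting error only.

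Cd34 was found in about the same share of Sca-1-negative cells on all 5 plates. Cells with at least 10 TPM of a gene are called positive for it. By that rule Cd34 was positive in 23 of 71 cells on cKO plate 1 (32.4%, interval 21.8% to 44.5%), 13 of 47 on plate 2 (27.7%, 15.6% to 42.6%) and 16 of 65 on plate 3 (24.6%, 14.8% to 36.9%). On dKO plate 1 it was positive in 23 of 93 cells (24.7%, 16.4% to 34.8%) and on plate 2 in 16 of 61 (26.2%, 15.8% to 39.1%). The dKO shares lay inside the cKO range, and the intervals of all 5 plates overlapped. The level within positive cells varied more than their share. The median TPM of Cd34-positive cells was 290.4 on cKO plate 1, 262 on plate 2 and 136.8 on plate 3, and 73.98 and 179.9 on dKO plates 1 and 2. The highest single cell of each plate reached 955, 613 and 474 TPM in cKO, against 376 and 425 TPM in dKO. Positive cells on dKO plate 1 were thus the lowest, and those on dKO plate 2 lay between cKO plates 3 and 2. Of the other cells 29, 22 and 23 in cKO and 28 and 24 in dKO were listed at 0 TPM, and 19, 12, 26, 42 and 21 lay between 0 and 10 TPM, in the same order of plates. The count of positive cells depends on the line: at 1 TPM or more Cd34 was present in 38, 19 and 29 cells in cKO, against 39 and 30 in dKO. Above the line 1 of 52 positive cKO cells and 8 of 39 positive dKO cells lay under 20 TPM.

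Lgr5 was rarer than Cd34 on every plate and close to all or none. It was positive in 17 of 71 cells on cKO plate 1 (23.9%, 14.6% to 35.5%), 9 of 47 on plate 2 (19.1%, 9.15% to 33.3%) and 14 of 65 on plate 3 (21.5%, 12.3% to 33.5%). In dKO it was positive in 16 of 93 (17.2%, 10.2% to 26.4%) and 9 of 61 cells (14.8%, 6.98% to 26.2%). Both dKO shares were below the 3 cKO shares, with overlapping intervals. Of 337 cells, 252 were listed at 0 TPM and 20 lay between 0 and 10 TPM. Median TPM in the positive cells was 127.8, 329 and 136.7 in cKO and 59.96 and 307 in dKO, so the plates of one genotype differed more than the genotypes did. Over all 5 plates the highest cell, on cKO plate 2, had 819 TPM.

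Cd200 was the gene of the 3 that set the genotypes apart. It was positive in 22 of 71 cells on cKO plate 1 (30.99%, 20.5% to 43.1%), 13 of 47 on plate 2 (27.7%, 15.6% to 42.6%) and 15 of 65 on plate 3 (23.1%, 13.5% to 35.2%). In dKO it was positive in 39 of 93 (41.9%, 31.8% to 52.6%) and 27 of 61 cells (44.3%, 31.5% to 57.6%). Both dKO plates were above all cKO plates, although single intervals still overlapped. The level of the positive cells did not follow the same order, with medians of 48.6, 114.7 and 71.4 TPM in cKO, against 62 and 79.3 TPM in dKO. Cells at 0 TPM numbered 47, 33 and 46 on the plates of cKO, and 42 and 27 on those of dKO. Cd200 had lower peaks than the other 2 genes, with a highest cell of 363 TPM, on dKO plate 1. Median genes detected were 4942.5 in Cd200-positive and 5356.5 in Cd200-negative dKO cells, and 4963.5 and 4963 in cKO. Their part in the result was not tested. Weighting cells to match the plates on genes detected was among the recomputed settings of the closing section. Over all of those settings the Cd200 share in dKO was 13.8 to 24.3 points above that in cKO. The lowest value came from leaving out cKO plate 3 and the highest from 1 TPM as the line, not from the matching.

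**Figure D1:**
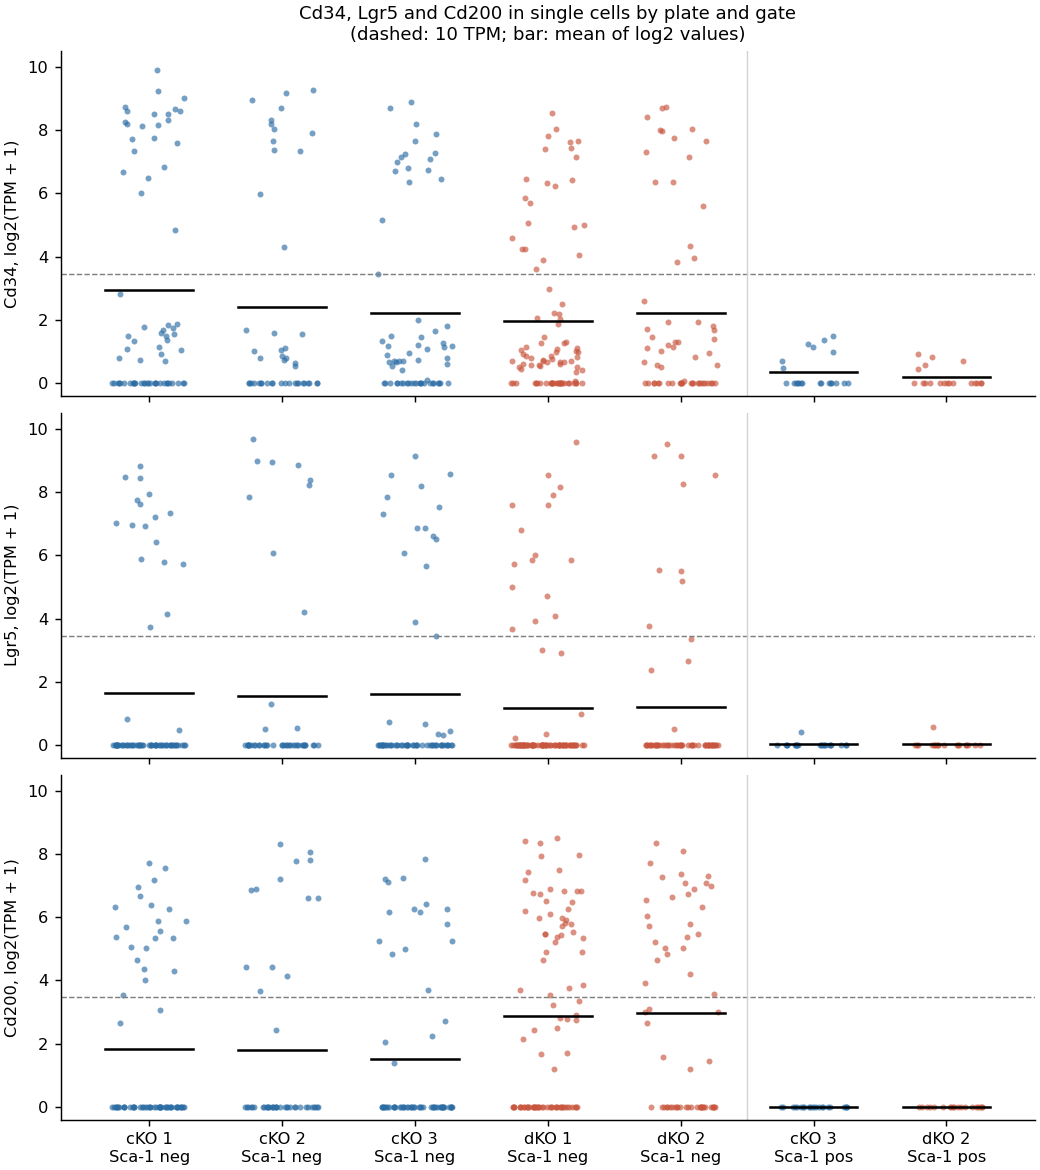
TPM of Cd34, Lgr5 and Cd200 in each kept cell, as log2(TPM + 1), by plate and gate, with cKO in blue and dKO in red; the dashed line is 10 TPM and the bar the mean of the log2 values. Lgr5 and Cd200 cells are mostly at 0 or far above the line, the dKO plates have more Cd200 cells above it (39 of 93 and 27 of 61), and no Sca-1-positive cell reaches it for any gene.

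**Figure D2:**
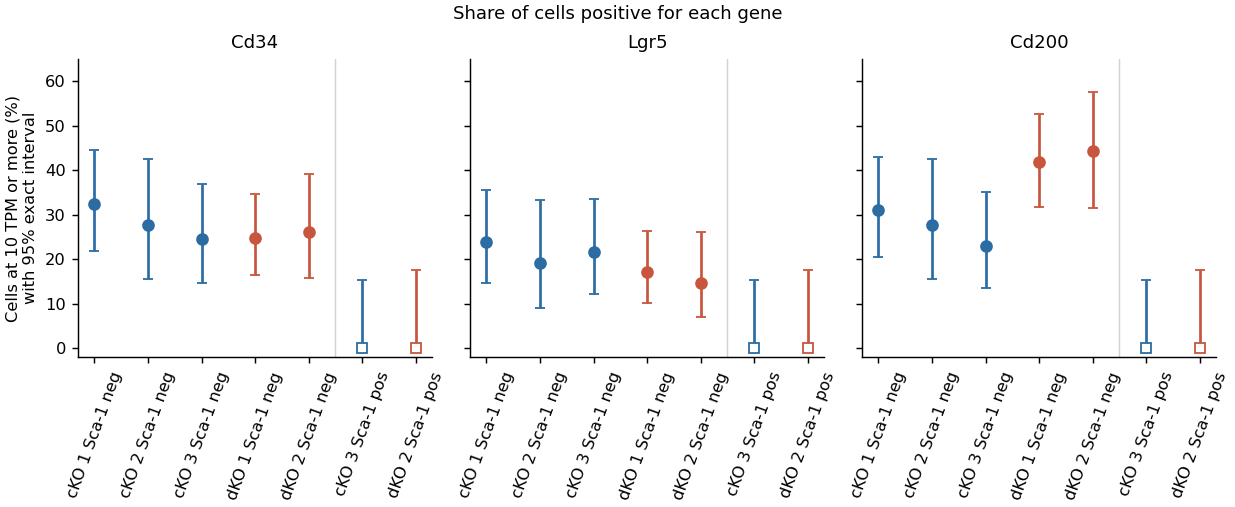
Share of cells at 10 TPM or more for each gene by plate and gate, with exact 95% binomial intervals; filled circles are Sca-1-negative and open squares Sca-1-positive cells. Cd200 is at 23.1% to 30.99% on the cKO plates and at 41.9% and 44.3% on the dKO plates. The intervals of both genotypes overlap for every gene, Cd200 included.

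The comparison of dKO with cKO asks what the further floxed Nfib allele goes with. Mean TPM of a plate mixes the number of positive cells with the RNA in each. It was 99.8, 81.5 and 44.3 for Cd34 in cKO and 26.1 and 48.4 in dKO. With plates weighted equally the genotype means were 75.2 and 37.3 TPM, a log2 ratio of -0.99 with a pseudocount of 1 TPM. The plates of the genotypes overlapped, so Cd34 did not pass the size rule, which asks for at least 1.5-fold and no overlap of plates in mean TPM and mean log2 value. For Lgr5 the plate means were 38.9, 68.7 and 42.1 TPM in cKO but 26.8 and 43.99 TPM in dKO. Its genotype means were 49.9 and 35.4 TPM, a log2 ratio of -0.48, again with overlapping plates. Plate means of Cd200 were 21.1, 35.6 and 19.3 TPM in cKO, all below the 42.01 and 43.3 TPM of dKO. Its genotype means were 25.3 and 42.6 TPM, 1.66-fold higher in dKO, and it passed the rule. The same rule called 1.77% of 7060 measured genes higher in dKO and 3.95% lower, so 30.9% of the called genes were higher. That split was 46.8% with size factors per plate and 60.1% with the spike-in rows and the 5 most abundant rows removed, which moved the median log2 ratio of all measured genes from -0.12 to -0.0033. The Cd200 ratio was 0.84 and 0.97 under these scalings and kept its call, and those of Cd34 (-0.91 and -0.83) and Lgr5 (-0.39 and -0.45) stayed without one. The Cd200 call was lost without cKO plate 3 (log2 ratio 0.57, against 0.73).

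Among the 3 genes Cd200 alone was also called by share, although the Lgr5 shares of both dKO plates lay below those of all cKO plates. The mean plate share went from 28.2% to 25.5% for Cd34, a difference of -2.74 points, and from 21.5% to 15.98% for Lgr5, a difference of -5.56 points. For Cd200 it was 27.2% in cKO and 43.1% in dKO, 15.9 points higher, and it passed the share rule of at least 10 points with no overlap of plates. That rule called 4.66% of the 7060 genes higher and 3.46% lower, so 57.4% of its calls were higher, or 83.01% with the abundant rows removed. With those rows removed the Cd34 difference was 1.002 points. Leaving out each plate in turn gave a Cd200 difference of 13.8 to 17.7 points. The 2 kinds of plates went the same way for Cd200, while Cd34 was lower in dKO on the Xist plates and about equal on the Y plates. Cd200 differed by 12.6 points between Xist plates and by 21.2 points between Y plates, with log2 ratios of mean TPM of 0.55 and 1.13. Cd34 had a log2 ratio of -1.76 between Xist plates but 0.13 between Y plates, where the medians of all measured genes were -0.23 and 0.04. Lgr5 had -0.98 and 0.061, while its share was lower in dKO on both kinds (-4.34 and -6.78 points). Without cKO plate 3 the Cd34 log2 ratio of -1.26 passed the size rule, and without dKO plate 2 those of Cd34 (-1.49) and Lgr5 (-0.87) did. The rule then called 7.42% and 10.4% of all measured genes lower, in the same order, against 3.95% with all 5 plates. Both plates left out have Y-linked RNA.

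None of the 3 genes was found at 10 TPM in any Sca-1-positive cell. The counts were 0 of 22 cells on cKO plate 3 and 0 of 19 on dKO plate 2, which allow shares of up to 13.6% and 15.8% by a limit of 3 cells; the exact intervals reach 15.4% and 17.6%. Cd34 averaged 0.362 and 0.165 TPM there, with a highest cell of 1.84 TPM, against 44.3 and 48.4 TPM in the Sca-1-negative cells of the same plates. Lgr5 was above 0 in 1 cell of each plate, at 0.33 and 0.47 TPM, and Cd200 was listed at 0 in all 41 cells. Ly6a, which encodes the sorted antigen, averaged 68.4 TPM in the Sca-1-positive and 19.7 TPM in the Sca-1-negative cells of cKO plate 3, and 124.6 and 25.95 TPM on dKO plate 2. All 3 genes were lower in the Sca-1-positive cells by a rule of at least 2-fold and at least 1 in mean log2 value. The rule called 5.8% of 6639 genes lower on cKO plate 3 (3.0% higher) and 10.4% of 6534 genes lower on dKO plate 2 (4.29% higher). Well row and gate cannot be told apart, since the Sca-1-positive cells filled the upper 2 rows. With only the next 2 rows as Sca-1-negative cells the Lgr5 call on cKO plate 3 was lost (-4.55 points).

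Most Lgr5-positive cells were also Cd34-positive. Among Cd34-positive cells Lgr5 was positive in 17 of 23, 9 of 13 and 9 of 16 on the cKO plates (73.9%, 69.2% and 56.3%), and in 12 of 23 and 5 of 16 on the dKO plates (52.2% and 31.3%). Among Cd34-negative cells it was positive in 0 of 48, 0 of 34 and 5 of 49 in cKO and in 4 of 70 and 4 of 45 in dKO. The share was thus higher in the Cd34-positive cells on each of the 5 plates, at a mean of 56.6% against 4.96%. Read the other way, all 17 and all 9 Lgr5-positive cells of cKO plates 1 and 2 were Cd34-positive, as were 9 of 14 on cKO plate 3, 12 of 16 on dKO plate 1 and 5 of 9 on dKO plate 2. Over the 337 cells 52 had both genes, where the product of the single shares gives 17.6. Of the 8 dKO cells with Lgr5 but not Cd34, 1 was listed at 0 for Cd34 and the others had up to 4.62 TPM. Of the 5 such cKO cells, all on plate 3, 3 were listed at 0. Within the Cd34-positive cells of every plate the median Cd34 level was higher in cells with Lgr5 than in cells without it. The medians with and without Lgr5 were 307.6 and 245.4 TPM on cKO plate 1, 294 and 212.6 TPM on plate 2 and 149.5 and 110.8 TPM on plate 3. On dKO plate 1 they were 83.3 and 32.4 TPM, and on dKO plate 2 they were 216.6 and 159.2 TPM.

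Cd200 was spread over cells with and without Cd34. On cKO plates 1, 2 and 3 it was positive in 11 of 23, 3 of 13 and 4 of 16 Cd34-positive cells, against 11 of 48, 10 of 34 and 11 of 49 Cd34-negative cells. In dKO it was 15 of 23 and 6 of 16 against 24 of 70 and 21 of 45. The share was higher in the Cd34-positive cells on 3 of 5 plates and lower on the others, and 39 cells had both genes where the product of shares gives 31.3. The mean share in Cd34-positive cells was 31.97% in cKO and 51.4% in dKO, and in Cd34-negative cells 24.9% and 40.5%. Of 50 Cd200-positive cKO cells 32 lacked Cd34, and of 66 Cd200-positive dKO cells 45 did.

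The 8 combinations of the 3 genes divided the 337 Sca-1-negative cells as follows. None of the 3 was positive in 47.2% of cells (41.7% to 52.7%), Cd200 alone in 74 cells (21.96%, 17.7% to 26.8%) and all 3 in 24 (7.12%, 4.62% to 10.4%). Cd34 with Lgr5 was found in 28 cells, Cd34 alone in 24, Cd34 with Cd200 in 15, Lgr5 alone in 10 and Lgr5 with Cd200 in 3. All 3 genes together were found in 12.7%, 4.26% and 4.62% of cells on the plates of cKO, against 8.60% and 3.28% on those of dKO, so the triple-positive share overlapped between genotypes. At least 1 gene was positive in 47.9%, 48.9% and 49.2% of the cells in cKO, against 53.8% and 63.9% in dKO. Cd200 alone made up much of that, at 15.5%, 21.3% and 16.9% in cKO and 24.7% and 31.1% in dKO. Triple-positive cells had a median of 4642.5 genes and cells with none 5156, and the part of genes detected in the overlap was not tested.

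**Figure D3:**
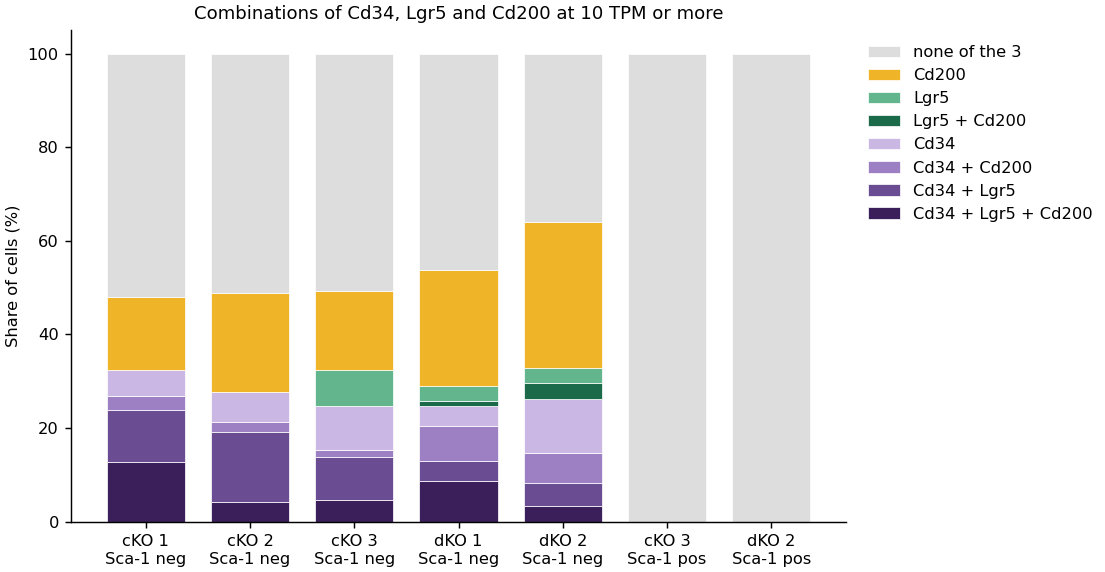
Share of cells with each combination of the 3 genes at 10 TPM or more, stacked to 100%, by plate and gate; purple shades hold Cd34, green shades hold Lgr5 without Cd34, yellow is Cd200 alone and grey none. Lgr5 without Cd34 is missing on cKO plates 1 and 2, the Cd200-only share is 24.7% and 31.1% on the dKO plates, and all Sca-1-positive cells are grey.

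**Figure D4:**
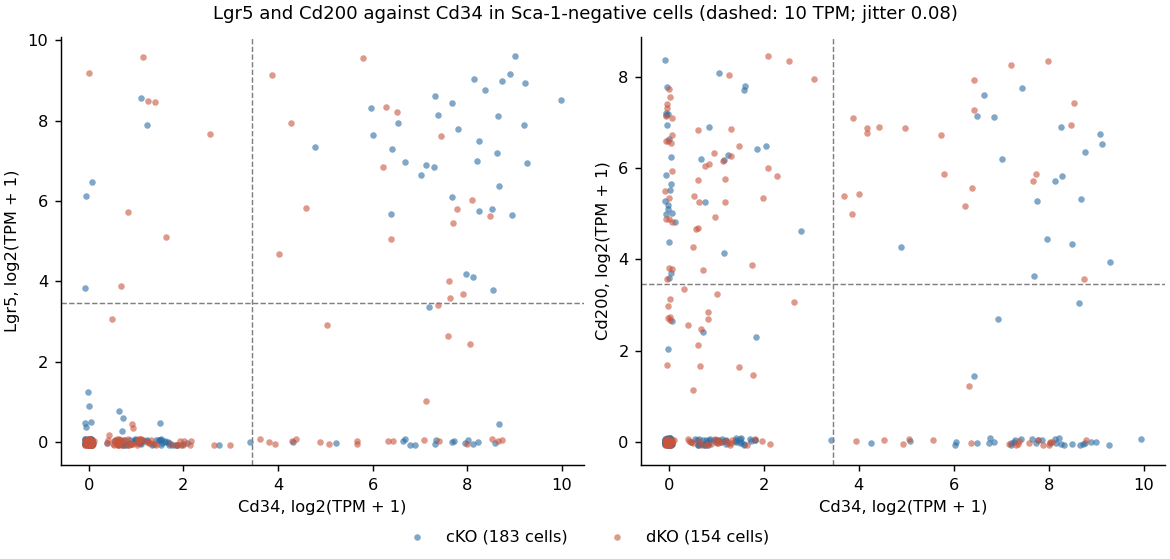
Lgr5 (left) and Cd200 (right) against Cd34 in each Sca-1-negative cell, as log2(TPM + 1), with cKO in blue, dKO in red, dashed lines at 10 TPM and points jittered. Lgr5-positive cells lie mostly to the right of the Cd34 line (52 of 65), while Cd200-positive cells lie on both sides of it (39 to the right and 77 to the left).

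Within the Cd34-positive cells the genotypes were compared once more, a comparison chosen after these values were seen. Plate means of Lgr5 in them were 120.1, 248 and 122.9 TPM in cKO, above the 80.9 and 61.7 TPM of dKO. The share of Lgr5-positive cells was 66.5% in cKO and 41.7% in dKO, and mean TPM was 163.8 and 71.3, and both scales passed their rule. By share the rule called 5.5% of 7160 genes lower and 10.8% higher in these cells, and by mean TPM 5.41% lower and 4.34% higher. The lowest cKO plate and the highest dKO plate were 56.3% and 52.2%, within their intervals. The difference of -24.8 points was -14.3 points without dKO plate 2 and -6.93 points with 1 TPM as the line for both genes. Cd200 averaged 36.1, 25.9 and 18.4 TPM in the Cd34-positive cells of the cKO plates and 72.8 and 47.8 TPM in dKO, but its shares (47.8%, 23.1% and 25% against 65.2% and 37.5%) overlapped and it passed neither rule there.

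Several genes of the bulge list were positive more often in Cd34-positive cells, and several of the upper follicle list less often. A gene is counted where its share of positive cells differed by at least 10 points on average and in the same direction on all 5 plates, a description of cells divided by their own Cd34. Of 13 measured genes of a bulge list, 7 were higher in the Cd34-positive cells and 1 lower, with a median difference of 26.6 points. Of all 7057 other measured genes 6.43% were higher and 11.6% lower, with a median of -2.36 points. Dkk3, a secreted Dickkopf family protein, was positive in 74.9% of Cd34-positive and 3.58% of Cd34-negative cells (plate means). The T-box factor Tbx1 was at 83.4% and 13.4%, the matrix protein periostin (Postn) at 95.4% and 45.9%, and the LIM homeodomain factor Lhx2 at 56.2% and 7.57%. Sox9 and Nfatc1, transcription factors of bulge cells, were at 95% in Cd34-positive cells and at 62.2% and 68.4% in the rest. Follistatin (Fst), which binds activin, was the bulge gene that was lower, at 28.5% and 59.2%. The bulge keratin Krt15 was near universal, at 99.1% and 87.3%.

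Of 10 measured upper follicle genes, 7 were lower in the Cd34-positive cells and none higher, with a median of -26.5 points. Krt17, also of that list, was positive in 90.7% of Cd34-positive and 93.3% of Cd34-negative cells. Ly6d, a surface protein of the Ly6 family, was positive in 7.52% of Cd34-positive and 87.9% of Cd34-negative cells. Lrig1, a negative regulator of EGF receptors and a marker of junctional zone stem cells, was at 29.4% and 82.6%. Ly6a RNA was at 1.25% and 40.4%, although all of these cells had been sorted as Sca-1-negative, and the transcription factor Gata6 was at 4.53% and 38.7%. Among 17 measured genes of WNT reception, 7 were higher and 2 lower, with a median of 12.01 points. The WNT receptor Fzd2 was at 67.3% and 5.21%, the secreted WNT inhibitor Sfrp1 at 62.1% and 9.57%, and Lgr4, a relative of Lgr5 that also binds R-spondins, at 71.4% and 32.5%. Tnfrsf19, a receptor of the TNF family and a WNT target, was positive in none of the 91 Cd34-positive cells and in 51.4% of the rest. Of 9 genes linked to CD200 or immune privilege, 4 were lower and none higher: Nlrc5, an activator of MHC class I genes (13.7% and 59.4%), the peptide transporter Tap1 (36.03% and 80.9%), and the class I genes H2-D1 (78.6% and 99.6%) and H2-K1 (78.4% and 98.7%), whose similar copies share reads. Podxl2, a sialomucin of the CD34 family, was at 22.6% and 5.3%.

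The median number of genes detected was 4785 in Cd34-positive and 5101 in Cd34-negative cells, and its part in these differences was not tested. Some collagen genes of a fibroblast list moved with Cd34. The summed TPM of the 7 genes averaged 54.6 in Cd34-positive cells (range 0 to 334) and 2.05 in the rest. Col1a1 was positive in 34 of 91 and 5 of 246 cells, Col6a1 in 42 of 91 and 3 of 246, and Col1a2 in 8 of 91 and 0 of 246. Pdgfra, Dcn and Lum, which define fibroblasts, were at 0 in every Cd34-positive cell, Col3a1 averaged 0.00527 TPM there, and 1 Cd34-positive cell had at least 3 of the markers. Cdh5, Kdr, Tek and Cldn5, which define endothelium, another cell type with CD34, were listed at 0 in all cells. The other 4 endothelial markers were positive in no Cd34-positive cell, where the summed TPM of the 8 ran from 0 to 4.34. Among the 246 Cd34-negative cells Flt1 was positive in 10 (up to 139.05 TPM), and Vwf and Pecam1 in 1 each. At least 3 immune markers were found in 2 cells, both Cd34-negative, and at least 3 cell cycle genes in 63 cells, 11 of them Cd34-positive.

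**Figure D5:**
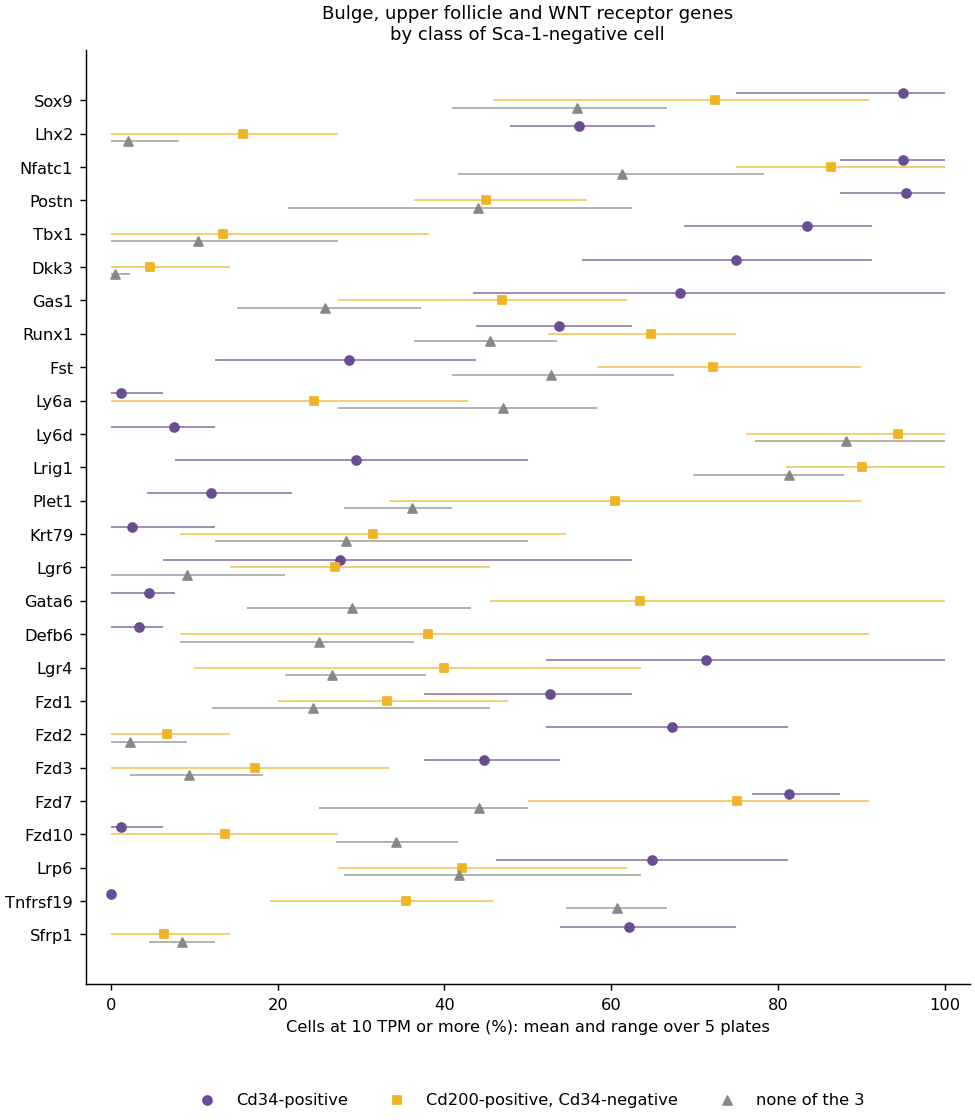
Share of Sca-1-negative cells at 10 TPM or more for 26 genes of the bulge, upper follicle and WNT lists that met the 10-point rule in either division, in Cd34-positive cells (circles), cells with Cd200 but not Cd34 (squares) and cells with none of the 3 genes (triangles); symbols are means and lines ranges over 5 plates. Dkk3, Tbx1, Lhx2, Fzd2 and Sfrp1 set the Cd34-positive cells apart, and Gata6, Plet1 and Fst are highest in the Cd200 cells without Cd34.

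Cells with Cd200 but not Cd34 were compared with cells that had none of the 3 genes. Of 10 measured upper follicle genes, 3 were higher and none lower, and of 13 bulge genes 4 were higher and none lower. Over all 7057 other measured genes 2.04% were higher and 4.02% lower. Gata6 was positive in 63.4% of the Cd200 cells and 28.9% of the others, Plet1, a surface protein of the infundibulum and junctional zone, in 60.5% and 36.1%, and Lgr6, a receptor related to Lgr5 that marks the isthmus, in 26.9% and 9.08%. The 4 bulge genes were Nfatc1 (86.3% and 61.3%), Gas1, a surface protein that binds hedgehog (46.9% and 25.6%), Fst (72.2% and 52.7%) and Runx1 (64.7% and 45.4%). The WNT receptor Fzd7 was at 75.1% and 44.2%, and Tnfrsf19 was lower at 35.3% and 60.7%. The ligand Tgfb2 was at 34.9% and 15.8%, and Tap1 was lower at 73.8% and 87.6%. Dkk3 and Fzd2, which marked the Cd34-positive cells, were at 4.68% and 6.68% in these Cd200 cells.

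Among Cd34-positive cells, those with and without Lgr5 differed by the rule in 1 bulge gene and in genes of some other lists. Of 13 bulge genes 1 was lower with Lgr5 and none higher, where 2.86% of all 7057 other genes were higher and 3.07% lower. That gene was Fst, at 22.2% and 38.4%. Of 17 WNT genes, 2 were higher with Lgr5 and 2 lower. Sfrp1 (76.7% and 41.3%) and Fzd3 (53.1% and 35.1%) were higher, and Fzd1 (40.8% and 66.1%) and Fzd6 (25.4% and 52.1%) were lower. Of 9 genes linked to CD200 or immune privilege, 2 were lower and none higher, with a median of -12.1 points. In that list Nlrc5 was at 2.35% and 28.1%. Of 2 measured fibroblast genes 1 was higher. Few cells lie behind these Lgr5 shares, and each plate counted equally in them. Cells lacking Lgr5 numbered 6 (cKO 1), 4 (cKO 2), 7 (cKO 3), 11 (dKO 1) and 11 (dKO 2). Cells having it numbered 17, 9, 9, 12 and 5, listed likewise. With and without Cd200, none of the 13 bulge genes differed by the rule, where 1.77% of all genes were higher and 2.54% lower. At shares this small, 0 of 13 does not set the bulge list apart from all genes. In other lists some genes were lower with Cd200 and none higher. These were 2 of 3 genes of the CD34 family and partner list and 1 of 2 fibroblast genes. Also lower were 1 of 10 upper follicle genes, 1 of 17 WNT genes and 1 of 15 sorting antigens. On cKO plate 2 only 3 cells had both genes.

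Genes whose levels followed each gene most closely were ranked by the mean within-plate Pearson correlation of log2(TPM + 1) over the 337 Sca-1-negative cells of 5 plates, among 4823 genes positive in at least 20% of cells. Points of a plate share their library preparation and the depth of each cell, and the values are descriptions. For Cd34 they were Dkk3 (0.79), Tbx1 (0.77), Il31ra (0.76), which encodes an interleukin-31 receptor chain, Fzd2 (0.74) and the chemokine Cxcl14 (0.73). For Lgr5 they were Il31ra (0.74), Dkk3 (0.63), Tbx1 (0.61), the LIM protein gene Crip1 (0.61) and Cd34 itself (0.59). For Cd200 the values were lower: the growth factor Fgf1 (0.33), Nfatc1 (0.32), Megf6 (0.32), Fzd7 (0.29) and the semaphorin Sema3e (0.27). Cd34 and Lgr5 correlated between 0.29 on dKO plate 2 and 0.79 on cKO plate 2. Cd34 and Cd200 correlated at a mean of 0.08, from -0.13 to 0.29, and Lgr5 and Cd200 at 0.07, from -0.11 to 0.26. Thus 4 of the 5 genes nearest to Lgr5, counting Cd34, were also Cd34 or among the 5 nearest to Cd34, and none of the 5 nearest to Cd200 was.

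The genes around the 3 markers were mostly not apart between genotypes by the size rule for mean TPM. Over all 7060 measured genes that rule called 1.77% higher and 3.95% lower in dKO, the shares against which the following counts stand. In the bulge list 2 of 13 measured genes were lower in dKO and none higher, with a median log2 ratio of -0.27 against -0.12 over all genes: Krt15 (566 and 233 TPM) and Hopx, a homeodomain protein of quiescent stem cells (12.5 and 6.43 TPM). Of the 17 WNT genes Wif1, a secreted inhibitor (3.27 and 20.04 TPM), and Znrf3, a ligase that removes WNT receptors and is held back by R-spondin and LGR proteins (5.19 and 8.62 TPM), were higher. Lgr6 was lower (18.7 and 7.53 TPM). Rspo1, Rspo2 and Rspo4, ligands of LGR5, were listed at 0 on every plate, and Lgr4 averaged 13.7 and 20.5 TPM without passing the rule. In the list of CD200 and immune privilege 1 of 9 genes was higher, Tgfb2 (11.1 and 37.3 TPM). Cd200r1, Cd200r2 and Cd200r4, genes of the CD200 receptor family, were listed at 0 on every plate. In the CD34 family and partner list none of 3 genes passed, with Crk, an adaptor of the CRK family, at 31.6 and 33.8 TPM and Crkl at 9.75 and 8.47 TPM. Of 15 surface antigens used in sorting, Cd44 was higher (127.4 and 201.9 TPM) and Lgr6 lower, while Ly6a was at 29.1 and 28.4 TPM. Of the fibroblast genes that moved with Cd34, Col1a1 was higher in dKO (2.43 and 17.8 TPM) and Col6a1 lower (8.74 and 2.43 TPM). Of the upper follicle list the outer root sheath keratin Krt17 was higher (443 and 814 TPM).

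By gate many genes of the bulge list were lower along with the 3 markers. Over all measured genes the gate rule called 5.8% lower and 3.0% higher on cKO plate 3, and 10.4% lower and 4.29% higher on dKO plate 2. Of the measured genes of the bulge list 8 of 12 were lower in Sca-1-positive cells of cKO plate 3 and 10 of 13 on dKO plate 2, and none was higher on either. The median log2 ratios were -2.05 and -2.70, against -0.15 and -0.30 over all measured genes. Sox9 averaged 3.98 TPM in the Sca-1-positive and 31.5 TPM in the Sca-1-negative cells of cKO plate 3, and Postn 10.3 and 132.9 TPM. Tbx1 was listed at 0 in the Sca-1-positive cells of both plates, and Lhx2 likewise. Krt15 did not follow, at 436 and 440.3 TPM on cKO plate 3. Of 10 and 9 measured upper follicle genes, 5 were lower on each plate, Lrig1 and Krt17 among them. There 1 and 2 were higher, Ly6a on both and Lgr6 on dKO plate 2. Ly6a encodes the antigen that set the gate, so its call is not independent of the sort. Gata3, a transcription factor, and Bmp4, a BMP ligand, were the 2 of 3 measured hair germ genes that were higher in Sca-1-positive cells on both plates. Tnfrsf19, at 0% of Cd34-positive cells, was higher as well, at 52.7 and 16.1 TPM on cKO plate 3.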

How the data were processed

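Single cells were sorted into 96-well plates, amplified by Smart-seq2 and tagmented with Nextera XT, per the labels' protocols. The deposited table holds TPM, made by the authors with Bowtie2 2.2.9 and RSEM 1.2.30 on mm10 (GRCm38), per the submitters' processing notes, with an annotation release not given in the sources used here. TPM is a share of all transcripts, so it keeps no read depth and moves with the most abundant rows (Rn18s-rs5 took 57.9% on average). Its 46609 rows include 92 ERCC spike-ins, which were left out of gene counts. Strand is not marked, so antisense reads cannot be told apart.

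Plates and wells were read from sample titles. Cells with at least 1000 genes at 1 TPM were kept (6 of 384 were left out, with 24 to 883 genes). Values were averaged over cells of a plate and then over plates, each plate counting equally, and ratios used a pseudocount of 1 TPM; measured genes averaged at least 5 TPM over the 5 plates (or over both gates of a plate). The rules of size are not tests. No doublet caller was run on singly sorted cells. A share of 0 allows up to 3 cells of the total. No column was left without a sample. Python 3.11.15, numpy 2.4.6, pandas 2.3.3, scipy 1.17.1 and matplotlib 3.10.9 were used, and the rules were tested on simulated data.

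The 3 genes, the 16 gene lists (172 genes, all found) and the rules were chosen with earlier results of these data known. Named were the 3 genes, the 5 genes most correlated with each, and up to 4 members of a list past the rule with the largest ratios or, where none passed, the 2 highest. Lists divided by Cd34, Lgr5 or Cd200, other genes named there or by gate, and the comparison within Cd34-positive cells were chosen after their values were seen. Sequences came from RefSeq (GRCm38.p6), gene positions from GENCODE. Alternatives are given in the closing section.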

Additional observations from a re-analysis of the deposited data

Results flagged for a closer look

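In mean TPM both Cd34 and Lgr5 were lower in dKO on the Xist plates and about equal between genotypes on the Y plates. The difference between the kinds was not tested. The log2 ratio of mean Cd34 TPM, dKO over cKO, was -1.76 between the Xist plates (dKO plate 1 against cKO plates 1 and 2) and 0.13 between the Y plates (dKO plate 2 against cKO plate 3). The share of Cd34-positive cells differed by -5.30 points and 1.61 points in the same order. The log2 ratio of mean Lgr5 TPM was -0.98 for the former and 0.061 for the latter, where the median of all measured genes was 0.04. By share Lgr5 went the same way on both, at -4.34 and -6.78 points. Each kind holds 1 dKO plate, so plate and kind cannot be told apart.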

How the results depend on the processing

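Of 302 recomputed values over 28 results, 260 stayed within counting error, the spread of plates or, for shares of called genes, 1.5 times; 42 moved and none reversed a call. Counting error was taken from pooled cells and is wide. The Lgr5 difference within Cd34-positive cells counts as unmoved at -6.93 points, against -24.8 points as reported. Reversal was looked for in called results only, so a change of sign without a call is not counted. No paired analysis was possible because no result comes from a test and plate numbers pair nothing in the labels. Depth is unknown, which limits what a value of 0 TPM means. The Cd200 share difference kept its call throughout (13.8 to 24.3 points). Its log2 ratio of mean TPM lost the call with a pseudocount of 10 (0.58) and without cKO plate 3 (0.57), and was 1.197 as a difference of mean log2. The Cd34 ratio gained a call without cells with other markers (-1.29) and matched on genes detected (-0.97), and the Cd34 share difference was 1.002 points with abundant rows removed. Lgr5 gained one with the highest 5% of cells left out (-1.50). The cause of these changes was not tested.

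The share of measured genes called higher and lower in dKO by mean TPM was 0.652% and 1.204% with a pseudocount of 10, 1.12% and 1.51% with no gene filter, and 4.24% and 1.98% as differences of mean log2. The higher share was 4.74% with ERCC and abundant rows removed and 2.89% with the highest 5% of cells out. By share of positive cells it was 10.4% and 1.84% at 1 TPM, 7.33% and 1.499% with rows removed, 0.767% and 0.570% with no gene filter, and 2.52% higher at 20 TPM. Leaving out each plate gave 2.04% to 6.495% higher and 5.03% to 10.4% lower by mean TPM, and 6.21% to 10.7% and 4.07% to 6.98% by share. At 1 TPM Lgr5 was found in 41.7% of Cd34-positive cells, Cd34 in 89% of Lgr5-positive cells and Cd200 in 37.7% of Cd34-negative cells, and Cd34 differed by -49.2 points between gates on dKO plate 2. The log2 ratio of Cd34 between gates was -5.06 on cKO plate 3 and -5.41 on dKO plate 2; it was -6.59 and -7.52 with a pseudocount of 0.1, -2.39 and -2.52 with 10, -6.31 and -6.94 with rows removed, and -3.81 on cKO plate 3 with rows C and D. There the Cd200 difference was -40.9 points.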
